A study of Mus musculus with 20 samples.

Results

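The 10 receptor kinase genes described here are studied in bladder cancer and were followed across 20 arrays. They are Egfr, Erbb2, Erbb3 and Erbb4 of the ErbB family, Fgfr1, Fgfr2 and Fgfr3 of the fibroblast growth factor receptors, and Met, Igf1r and Kit. They were taken by gene symbol from the 30142 named genes of the array, and each of the 10 had 1 row of values. The tissue came from FVB/N mice whose genotype, the same in every group, includes Rbf/f and p107-/-, that is, by the labels, Rb alleles that Cre recombinase can delete and the loss of the Rb relative p107. Control bladders (n = 5) were normal bladders of this genotype, for which the labels list no virus. Bladder tumors (n = 7) had arisen after an adenovirus coding for Cre was placed in the bladder, and the labels name neither the cells it reached nor the share of cells that lost the floxed genes. Treated bladders (n = 3) came from mice given the virus and then CM272, which inhibits both G9a, a histone methyltransferase, and DNA methyltransferases, at 5 mg/kg/day for 30 days, with CDDP (cisplatin) at 6 mg/kg each week. The labels give their tissue as bladder, with no word on how much tumor remained. Metastases of untreated mice (n = 4) and 1 metastasis of a treated mouse completed the series, and their organs are not named. The age of the mice is not analysed here. The labels do not tie the samples of a group to separate animals. A p-value here therefore rests on sample-to-sample spread that may be technical in part.

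Receptor tyrosine kinases are membrane proteins that bind a growth factor outside the cell, pair up and phosphorylate each other inside it, which starts the RAS-MAPK and PI3K-AKT cascades. In the bladder, FGFR3 is often mutated in low-grade human papillary tumors, EGFR is linked to basal-like tumors, and ERBB2 and ERBB3 are linked to luminal ones. Stroma and immune cells carry receptors of this class too: IGF1R is widely expressed, FGFR1 is common in mesenchymal cells, and KIT marks mast cells, melanocytes and interstitial cells of Cajal.

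The promoters are shown because the treatment included an inhibitor of DNA methyltransferases, whose substrate is the cytosine of a CG pair. No methylation was measured here. RefSeq starts on assembly GRCm38.p6 were found for 8 of the 10 genes, all but Erbb3 and Fgfr1, and gave 10 promoters of 250 bases before the start, with 2 each for Fgfr3 and Kit. Those of Fgfr2 and Igf1r held the fewest and the most CG pairs of the 10, and Egfr had the widest spread of values over the arrays. They lie on the plus strand at chr11:16751953-16752202 for Egfr, on the minus strand at chr7:130266809-130267058 for Fgfr2 and on the plus strand at chr7:67952007-67952256 for Igf1r. Each is printed 5′ to 3′ on the strand of its gene, with CG pairs in capitals.
Egfr: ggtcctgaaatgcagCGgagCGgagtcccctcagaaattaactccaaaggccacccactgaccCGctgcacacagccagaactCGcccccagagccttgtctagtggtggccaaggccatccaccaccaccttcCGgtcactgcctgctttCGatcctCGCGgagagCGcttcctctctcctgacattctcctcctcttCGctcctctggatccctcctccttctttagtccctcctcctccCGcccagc
Fgfr2: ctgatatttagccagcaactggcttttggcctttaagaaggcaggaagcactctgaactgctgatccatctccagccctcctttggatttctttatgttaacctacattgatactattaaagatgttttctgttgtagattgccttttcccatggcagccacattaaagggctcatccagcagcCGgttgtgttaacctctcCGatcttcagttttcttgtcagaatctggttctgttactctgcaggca
Igf1r: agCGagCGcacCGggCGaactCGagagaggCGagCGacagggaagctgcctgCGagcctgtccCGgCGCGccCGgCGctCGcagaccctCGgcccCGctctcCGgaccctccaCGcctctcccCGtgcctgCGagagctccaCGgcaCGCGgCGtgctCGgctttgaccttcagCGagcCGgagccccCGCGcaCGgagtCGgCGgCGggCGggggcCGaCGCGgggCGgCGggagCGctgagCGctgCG
The Egfr promoter held 11 CG pairs, more than 64.4% of the 32851 promoters of the same length, whose median was 6. In the Fgfr2 window there were 2 CG pairs, more than 18.8% of promoters. Igf1r had 42, more than 99.1% of promoters. The remaining 5 genes had 12 (Erbb4), 16 (Erbb2), 17 and 18 (Kit), 19 and 24 (Fgfr3) and 24 (Met). The GC box GGGCGG, searched on both strands, was found in the promoters of Egfr, Fgfr3, Met, Igf1r and Kit, and in 32.7% of all promoters. No GGGCGG was found in the windows of Erbb2, Erbb4 and Fgfr2. Such matches describe the letters only.

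Values are log2 of the array signal, so a difference of 1 is 2-fold, and levels are compared between arrays for 1 gene at a time. Over the named genes the array medians ran from 5.23 to 5.47. A set of 8 arrays stood apart in being close to the mean of all arrays: control bladders 4, 5 and 6, bladder tumors 3, 4 and 5 and metastases 3 and 4. Their deviations from that mean correlated with no other array above 0.14, against highest correlations of 0.33 to 0.61 for the other 12. They are called near-mean arrays below. Control bladders 1 and 2 differed from the remaining controls in Xist, at 10.8 and 10.9 against 5.95 to 6.04, and had the highest smooth muscle means among controls, 8.65 and 8.70 against 6.74 to 6.81. Outside the controls Xist ran from 4.47 in metastasis 1 to 6.435 in treated bladder 3, so no other group held such high values. Each comparison with all controls thus includes 2 arrays unlike any of the other group in Xist. The part of that difference in the receptor values was not tested. The Rb1 row spanned 5.55 to 6.48 over the arrays and overlapped between groups. The row of Rbl1, which encodes p107, ran from 6.03 in treated bladder 1 to 8.28 in metastasis 1. No array of this series lacks the p107-/- label, and whether either row reads the deleted part is unknown here, so neither checks the genotype. Urothelial identity was checked with the means of 14 luminal markers. They were 6.36 to 7.62 in control bladders, 5.24 to 8.78 in bladder tumors, 6.43 to 7.35 in treated bladders and 5.13 to 6.37 in metastases. Within the 8 near-mean arrays they ran only from 6.30 in metastasis 4 to 6.50 in control bladder 5. Smooth muscle means of those 8 ran from 6.66 in bladder tumor 3 to 6.81 in control bladder 6. So neither list parts the near-mean arrays by tissue. Means of 7 hepatocyte markers were at 6.49 and 7.50 in metastases 1 and 2 and 6.76 in the treated metastasis, against 5.09 to 6.00 in the bladder samples and 5.76 and 5.79 in metastases 3 and 4. The 7 markers did not move alike between untreated metastases and bladder tumors. Ahsg, Trf and Alb were higher by 2.48, 1.83 and 1.05, and Apoa1 and Apob by 0.27 and 0.081. Ttr and Cyp3a11 were lower, with differences of -0.40 and -0.18. No adjusted p of the 7 was under 0.05 (limma).

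None of the 10 receptor genes differed between groups past the threshold in any of the 5 comparisons (limma, Benjamini-Hochberg adjusted p under 0.05 over all genes). The background was the same, with 0 of 30142 genes called, or 0.0%, in bladder tumor against control bladder, treated bladder against bladder tumor, treated bladder against control bladder, metastasis against bladder tumor and metastasis against control bladder alike. At an unadjusted p under 0.05 the receptors counted 0, 0, 0, 1 and 3 of 10 in these comparisons. Among all genes the same threshold took 4.28%, 0.488%, 0.763%, 6.0% and 7.12%. The 4 unadjusted passes were Fgfr3 in both comparisons of the metastases and Igf1r and Kit in metastasis against control bladder, each lower in the metastases. The comparisons share their groups, so these passes are not independent of each other. No receptor had groups that did not overlap, against 0.179%, 0.166%, 1.19%, 0.514% and 2.95% of genes. In bulk tissue, fewer cells of a type and less RNA per cell cannot be told apart.

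**Figure D1:**
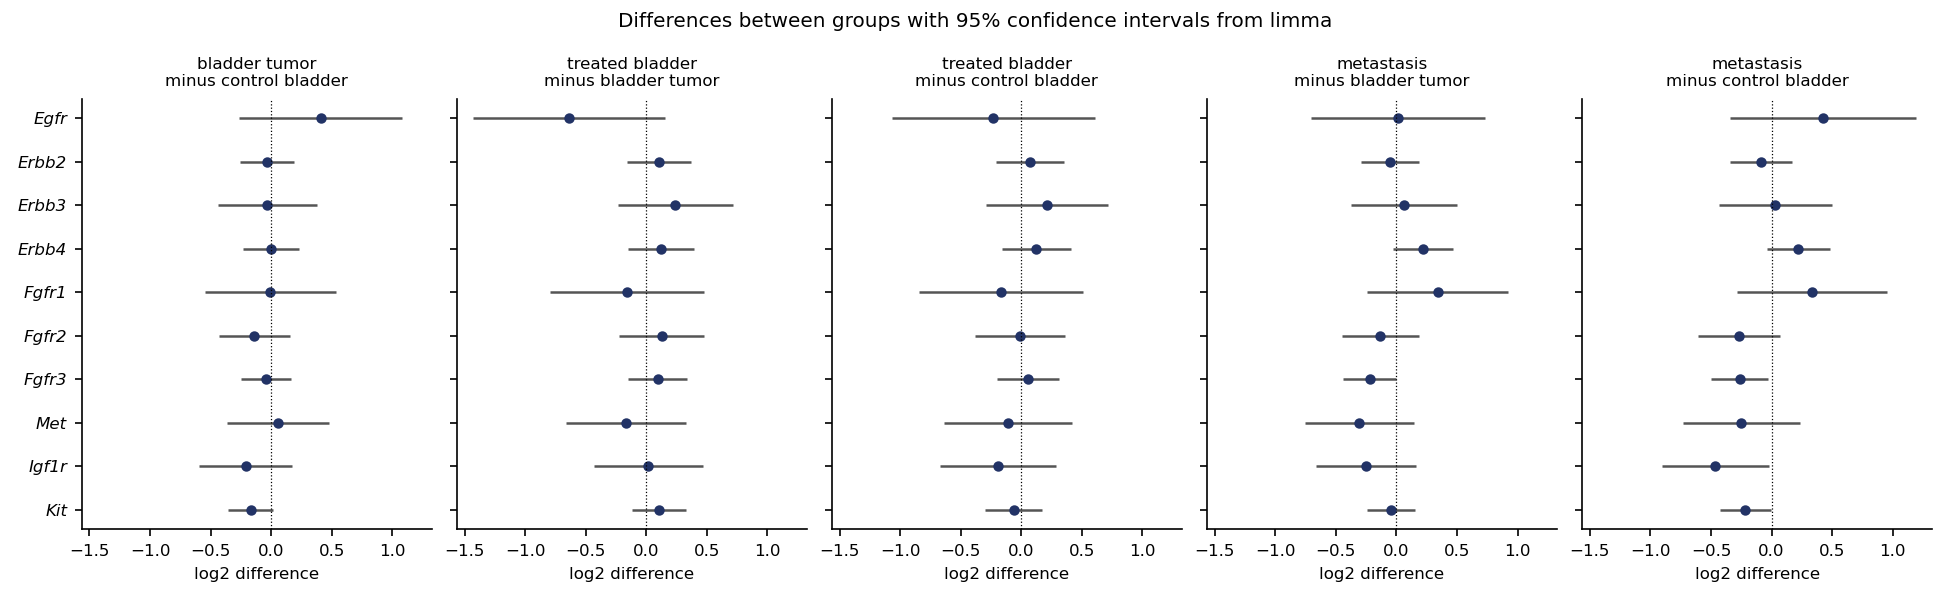
Differences between group means on the log2 scale (x axis) for the 10 receptor genes (y axis) in the 5 comparisons, with points for limma estimates and lines for 95% confidence intervals. Egfr has the widest intervals, and the 4 intervals that leave out 0 are those of Fgfr3 for metastasis minus bladder tumor and of Fgfr3, Igf1r and Kit for metastasis minus control bladder.

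The median difference of the 10 genes was -0.032 for tumor against control, where that of all genes was 0.0109. For treated bladder the medians were 0.10 against bladder tumor and -0.037 against control bladder, beside -0.0018 and 0.0080 for all genes. Metastases gave -0.050 against bladder tumor and -0.151 against control bladder, beside -0.0258 and -0.0132. In size, regardless of sign, the receptors' median difference was 0.049, 0.124, 0.117, 0.177 and 0.257 in the order of the comparisons above, and that of all genes was 0.10, 0.0762, 0.0837, 0.122 and 0.132.

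Egfr, the receptor of EGF, TGF-alpha and amphiregulin, had the widest range of the 10. Control bladders 1, 2, 4, 5 and 6 had Egfr values of 5.96, 6.00, 6.73, 6.81 and 6.99. Among bladder tumors Egfr ran from 6.01 in tumor 1 through a median of 6.74 to 8.34 in tumor 6. Controls 1 and 2 thus had a lower level than the 3 near-mean controls, while tumors 2 and 6 exceeded every control. In treated bladders 1 to 3 Egfr was 6.13, 6.55 and 6.12, and in metastases 1 to 4 it was 6.85, 7.72, 6.53 and 6.59. The treated bladders all lay within the tumor range, and so did the metastases. Egfr averaged 6.91 ± 0.73 (SD, n = 7) in tumors and 6.50 ± 0.48 (SD, n = 5) in controls, a difference of 0.41 or 1.33-fold (SE 0.32, adjusted p = 0.999, limma). Leaving out tumor 6 gave 0.17, leaving out the near-mean arrays 1.11, leaving out controls 1 and 2 0.066, and the near-mean arrays alone -0.18. Treated bladders averaged 6.27 ± 0.24 (SD, n = 3), and their difference from bladder tumors was -0.64 (SE 0.38, 95% interval -1.43 to 0.15, adjusted p = 1). Without tumor 6 that difference was -0.40. Metastases averaged 6.92 ± 0.55 (SD, n = 4), 0.013 from tumors (SE 0.34) and 0.42 from controls (SE 0.37, adjusted p = 0.819), and the latter was 1.31 without the near-mean arrays, 0.078 without controls 1 and 2 and -0.29 in the near-mean arrays alone. In order of group mean, metastases and tumors came before controls and treated bladders, and no neighbours in that order differed past the test.

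Erbb2, the ErbB member with no known ligand that serves as partner of the others, spanned only 5.60 to 6.35. Its control values lay between 5.90 and 6.10, with a mean of 5.97 ± 0.081 (SD, n = 5). Tumors reached from 5.72 to 6.35, around a mean of 5.93 ± 0.23 (SD, n = 7). The tumor values thus surrounded those of the controls, with 1 tumor above all of them and 4 below. Treated bladders had Erbb2 at 5.97, 6.20 and 5.95, and metastases at 5.79, 5.77, 6.09 and 5.87. Erbb2 differences ran from -0.087 (SE 0.12, metastasis against control) to 0.11 (SE 0.13, treated bladder against tumor) and none passed.

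Erbb3, a kinase-poor receptor of neuregulins that signals through its partners, spread more among tumors than among controls. Its controls were 5.79, 5.87, 5.87, 5.69 and 5.91. Tumor values of Erbb3 went from 5.35 in tumor 2 through 5.74 to 6.54 in tumor 7. Tumors 1 and 7 were above all controls and tumors 2, 5 and 6 below all of them, so that the means, 5.80 ± 0.43 (SD, n = 7) and 5.83 ± 0.086 (SD, n = 5), differed by -0.030 (SE 0.19). Treated bladders had 5.80, 6.34 and 5.96, with 2 of 3 above all controls. Their mean of 6.04 ± 0.28 (SD, n = 3) exceeded that of tumors by 0.24 (SE 0.23, adjusted p = 1). Metastases split too, with 6.29 and 6.09 in metastases 1 and 4 and 5.38 and 5.68 in metastases 2 and 3.

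Erbb4, the other neuregulin receptor, averaged 4.54 ± 0.13 (SD, n = 5) in controls and 4.54 ± 0.16 (SD, n = 7) in tumors. Metastases 1 to 4 had 5.09, 4.46, 4.83 and 4.66, of which 2 exceeded every tumor. Their mean of 4.76 ± 0.27 (SD, n = 4) was 0.22 above tumors (SE 0.12, adjusted p = 0.834) and 0.22 above controls (SE 0.13, adjusted p = 0.735). Treated bladders, at 4.78, 4.50 and 4.70, were 0.12 above each of the same groups (SE 0.13 against tumors, 0.14 against controls). Both groups overlapped the tumors and the controls. The mean of Erbb4 over the 20 arrays, 4.59, lay below the median gene mean of 5.33, and signal over background was not analysed.

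Fgfr1, whose product binds many FGFs and is typical of mesenchymal cells, was even among controls and uneven among tumors. Control values were 7.07, 6.80, 7.15, 7.05 and 7.13. Bladder tumors ran from 6.19 in tumor 1 through 6.82 to 8.27 in tumor 6. Tumors 1, 2 and 3 lay below all controls and tumors 4 and 6 above all of them, and the means of 7.03 ± 0.64 (SD, n = 7) and 7.04 ± 0.14 (SD, n = 5) differed by -0.0056 (SE 0.26). Treated bladders had Fgfr1 at 6.93, 7.12 and 6.58. Metastases stood at 7.47, 7.98, 7.03 and 7.01, with the higher pair in metastases 1 and 2, which are not near-mean arrays. Their mean of 7.37 ± 0.46 (SD, n = 4) was 0.34 above tumors (SE 0.28, adjusted p = 0.863) and 0.33 above controls (SE 0.30, adjusted p = 0.822). In the near-mean arrays alone the difference from controls was -0.087.

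Fgfr2, an epithelial receptor of FGF7 and FGF10 in its IIIb form, stayed within 5.73 and 6.64 over all arrays, and the array row does not separate its splice forms. Controls averaged 6.20 ± 0.19 (SD, n = 5), tumors 6.06 ± 0.29 (SD, n = 7), treated bladders 6.19 ± 0.27 (SD, n = 3) and metastases 5.93 ± 0.18 (SD, n = 4). The highest tumor, tumor 7 at 6.64, stood 0.56 above the next one, and treated bladder 2 was next over all arrays at 6.50. The difference of metastases from controls was -0.27 (SE 0.16, adjusted p = 0.741).

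Fgfr3, the receptor that is often activated by mutation in human papillary bladder tumors, had its lowest values in metastases. In controls 1, 2, 4, 5 and 6 it was 5.65, 5.68, 5.37, 5.60 and 5.54. Tumor values ran from 5.35 in tumor 6 through 5.51 to 5.74 in tumor 1, and treated bladders had 5.47, 5.66 and 5.73. Those 3 groups overlapped widely. Metastases 1 to 4 had 5.20, 5.22, 5.53 and 5.27, and the treated metastasis had 5.17. Metastases 1, 2 and 4 were below every tumor and every control, while metastasis 3 lay among them. The metastasis mean of 5.30 ± 0.15 (SD, n = 4) differed from that of tumors, 5.52 ± 0.17 (SD, n = 7), by -0.22 (SE 0.10, unadjusted p = 0.0473, adjusted p = 0.825, limma). Against controls, at 5.57 ± 0.12 (SD, n = 5), the difference was -0.26 (SE 0.11, unadjusted p = 0.0293, adjusted p = 0.685). The same 2 differences were -0.33 and -0.45 without the near-mean arrays and -0.11 and -0.11 in those arrays alone. The basal epithelium marker mean moved the same way, from 5.59 in tumors and 5.61 in controls to 5.25 in metastases, and the luminal mean from 6.49 and 6.84 to 5.93. The part of tissue make-up in the Fgfr3 values was not tested.

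Met, the receptor of hepatocyte growth factor, ran from 5.27 in metastasis 1 to 6.59 in tumor 6. Control values were 6.23, 6.05, 5.78, 5.78 and 5.56, and tumors had a lowest of 5.66, a median of 5.74 and a highest of 6.59. Treated bladders had Met at 5.39, 6.35 and 5.57 and metastases at 5.27, 5.34, 5.88 and 6.03. Treated bladders 1 and 3 and metastases 1 and 2 were below every tumor, and the other members of both groups were not. Met differed by -0.31 (SE 0.21, adjusted p = 0.852) between metastases and tumors and by -0.25 (SE 0.23, adjusted p = 0.831) between metastases and controls. In the near-mean arrays alone both signs turned, to 0.15 and 0.25.

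Igf1r, the receptor of insulin-like growth factors, was highest in controls 1 and 2. Control values were 6.44, 6.29, 5.67, 5.68 and 5.91. Tumors ran from 5.25 in tumor 2 through 5.84 to 6.23 in tumor 7, and treated bladders had 5.71, 6.05 and 5.65. No tumor exceeded the highest control, and tumors 1 and 2 were below all controls. Metastases 1 to 4 had Igf1r at 5.32, 5.57, 5.68 and 5.57, of which 3 were below every control. Their mean of 5.54 ± 0.15 (SD, n = 4) against the controls' 6.00 ± 0.35 (SD, n = 5) gave a difference of -0.46 (SE 0.21, unadjusted p = 0.0396, adjusted p = 0.692, limma). That difference was -0.92 without the near-mean arrays, -0.22 without controls 1 and 2 and -0.13 in the near-mean arrays alone. Endothelium markers averaged 5.99 in controls and 5.75 in metastases, and smooth muscle markers 7.53 and 6.18. Their part in the Igf1r values was not tested.

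Kit, the receptor of stem cell factor, had the smallest SD of the 10 over the 20 arrays (0.156). Its range of 0.664 was wider than that of Fgfr3 (0.574). Its control values were 5.91, 5.78, 5.58, 5.58 and 5.58. Tumors ran from 5.38 in tumor 5 through 5.52 to 5.67 in tumor 7. Of the 7 tumors, 5 were below every control, and the mean of 5.52 ± 0.10 (SD, n = 7) differed from the controls' 5.69 ± 0.15 (SD, n = 5) by -0.17 (SE 0.089, unadjusted p = 0.0724, adjusted p = 0.999, limma). Without controls 1 and 2 the difference was -0.063, and without the near-mean arrays -0.31. Treated bladders had Kit at 5.67, 5.54 and 5.65, and metastases at 5.42, 5.24, 5.59 and 5.63. Metastases 1 and 2 were below every control, metastases 3 and 4 were not. The metastasis difference from controls was -0.22 (SE 0.10, unadjusted p = 0.0476, adjusted p = 0.701), with -0.51 without the near-mean arrays, -0.11 without controls 1 and 2 and 0.030 in the near-mean arrays alone. Smooth muscle marker means were 7.53 in controls, 6.71 in tumors and 6.18 in metastases, and leukocyte means 6.17, 6.81 and 7.21. Means of 9 mast cell markers were 5.12, 5.18 and 5.19 in the same order. These lay below the median gene mean of 5.33, and signal over background was not analysed. The leukocyte markers did not move alike, as given with the correlations below. The part of the marker cells in the Kit values was not tested.

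**Figure D2:**
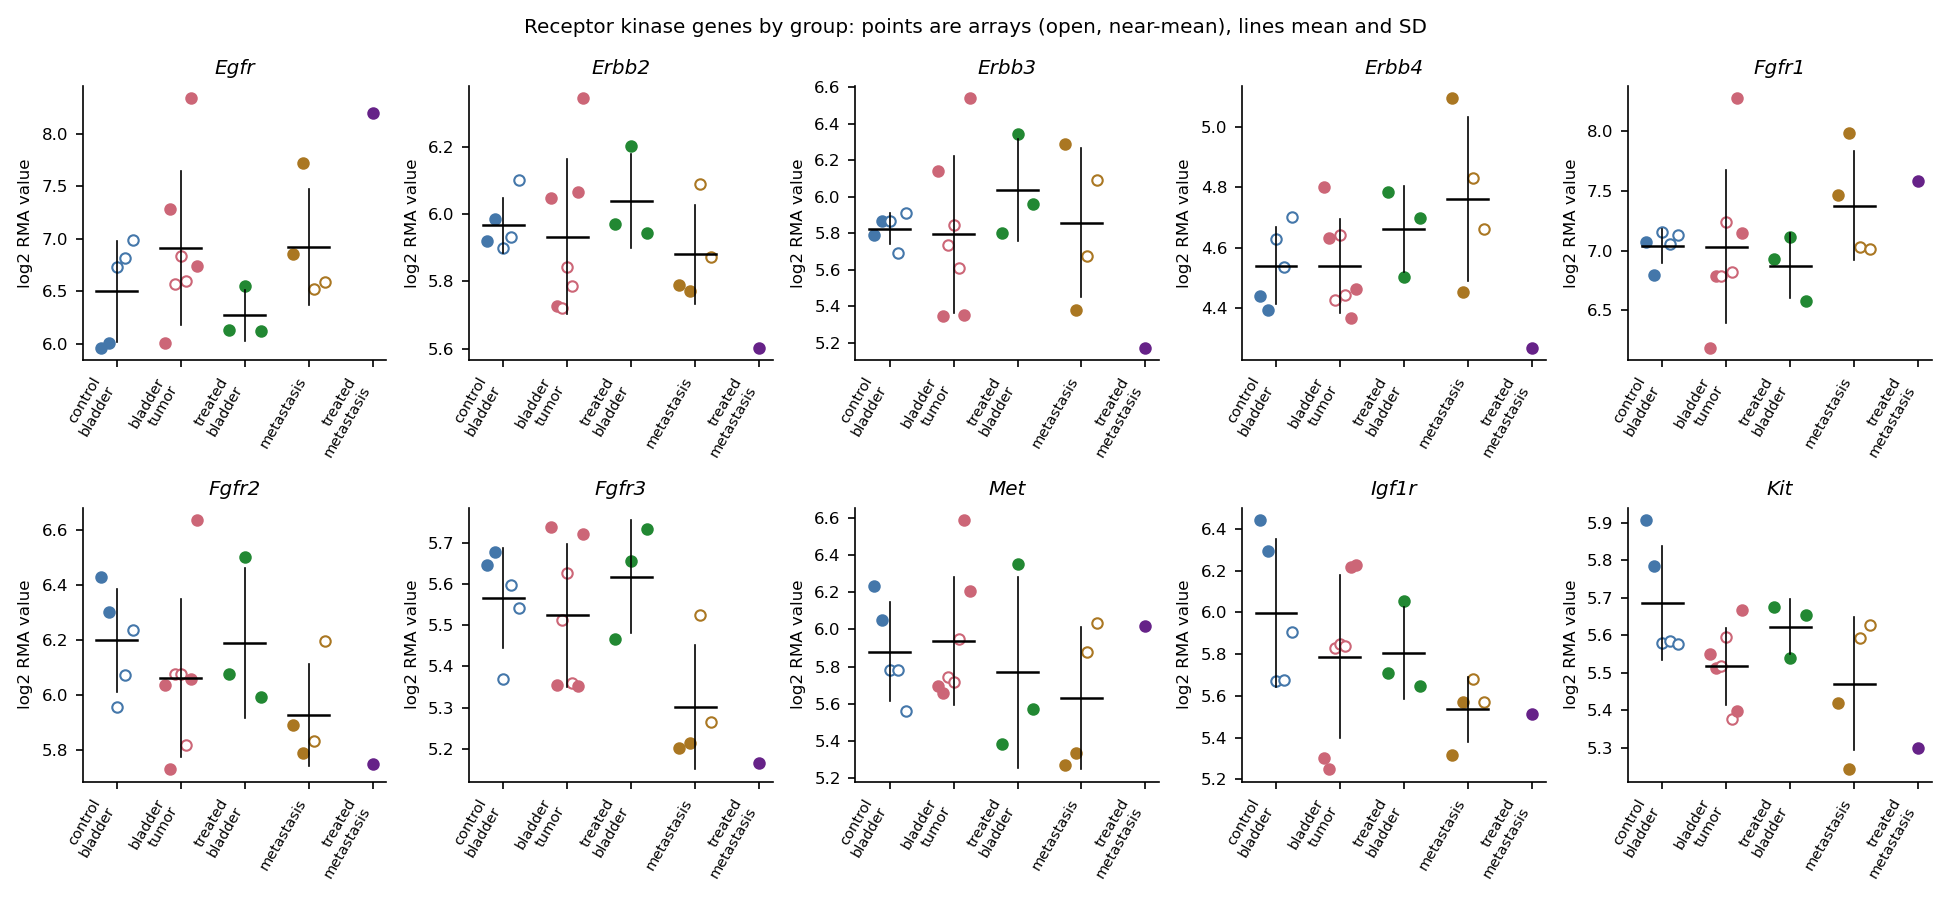
Log2 value of each receptor gene (y axis, own range per panel) in the 5 groups (x axis), with a point per array, open points for the 8 near-mean arrays, and lines for group mean and SD (none for the single treated metastasis). Tumor 6 is the highest point for Egfr, Fgfr1 and Met, tumor 7 for Erbb2, Erbb3 and Fgfr2, and 3 of 4 metastases lie below all tumors for Fgfr3.

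The single treated metastasis was set beside the 4 untreated ones with no test. Egfr was 8.20 in it and 6.53 to 7.72 in the untreated metastases, 1.27 above their mean of 6.92 (2.42-fold). Erbb3 was 5.17 against 5.38 to 6.29, and Erbb4 4.27 against 4.46 to 5.09. Those 2 receptors lay below all untreated metastases by mean differences of -0.69 and -0.49. Erbb2 (5.60), Fgfr2 (5.75) and Fgfr3 (5.17) were also below the untreated range, with differences of -0.28, -0.18 and -0.14. Fgfr1 (7.58), Met (6.02), Igf1r (5.51) and Kit (5.30) were within it. So 6 of the 10 receptors lay outside the untreated range, and 33.5% of all genes did. Erbb2, Erbb3, Erbb4 and Fgfr3 had their lowest value of all 20 arrays in this sample. Its luminal and basal marker means, 5.19 and 5.02, were within or below the untreated ranges of 5.13 to 6.37 and 5.05 to 5.49, and its fibroblast mean of 7.85 was above theirs of 6.71 to 7.13. The part of tissue make-up was not tested.

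The spread over the 20 arrays differed from receptor to receptor. Egfr had an SD of 0.672, larger than that of 96.0% of genes, and spanned 2.38 or 5.19-fold. Fgfr1 came next with an SD of 0.462, larger than 86.8% of genes, and a span of 2.09 or 4.25-fold. Erbb3 (0.353), Met (0.344) and Igf1r (0.335) were above the median gene's SD of 0.263, and Fgfr2 (0.251), Erbb4 (0.197), Fgfr3 (0.189), Erbb2 (0.179) and Kit (0.156) were below it. Within groups the SD of Egfr was 0.588 and that of Fgfr1 0.471, so most of the variation lay inside the groups. The near-mean arrays varied little in these genes: Egfr had an SD of 0.163 in them and 0.870 in the other 12, Fgfr1 0.156 and 0.588, and Igf1r 0.117 and 0.430. For the median gene the same 2 SDs were 0.246 and 0.259. Tumors 6 and 7 were each the highest array for 3 receptors.

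Tumors 6 and 7 differed in more than the receptors. Tumor 6 had the highest Egfr, Fgfr1 and Met of all arrays, the lowest Erbb4 and Fgfr3 of the tumors, the highest leukocyte marker mean (8.38) and the highest fibroblast mean (7.87). Its luminal and smooth muscle means, 5.24 and 5.52, were the lowest of the tumors. Tumor 7 had the highest Erbb2, Erbb3 and Fgfr2 of all arrays together with the highest luminal (8.78), smooth muscle (9.57) and mast cell (5.79) means. The part of the marker cells in these receptor values was not tested.

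Among the 45 pairs of receptors, 16 were correlated over the 20 arrays (permutation p adjusted over the 45 pairs under 0.05), 10 with a positive and 6 with a negative sign. Of the 16, 12 passed by Spearman's rho too, 12 passed over the 12 arrays that are not near-mean, and 9 passed with group means subtracted over 19 arrays. All 16 kept their sign when the 2 arrays farthest from the median of the first gene were left out, with sizes of r from 0.353 to 0.785. Within the 8 near-mean arrays 11 of the 16 had the same sign, with r from -0.673 to 0.749. Arrays share their normalization, and the samples were not drawn from 1 group, so a pooled r also carries differences between groups.

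**Figure D3:**
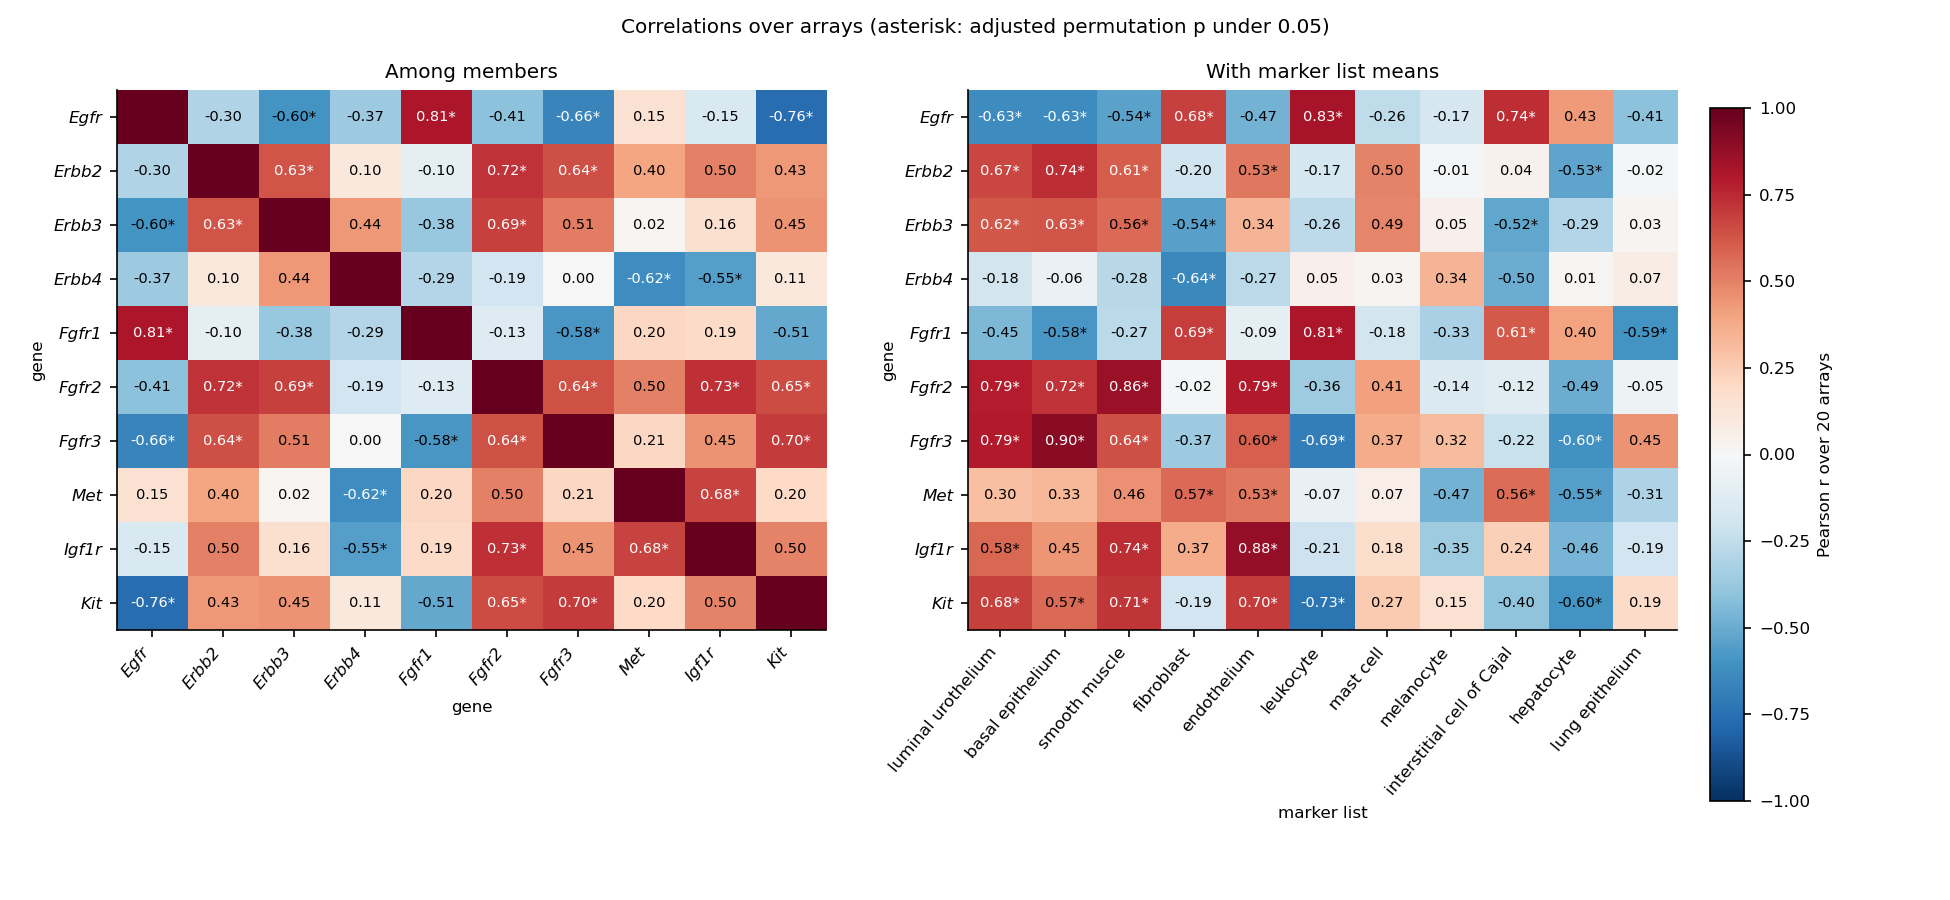
Pearson r over 20 arrays (color and printed value) for the 45 pairs of receptor genes (left) and for the 10 receptors against the means of 11 marker lists (right), where an asterisk marks a permutation p under 0.05 after adjustment over 45 or 110 pairs. Egfr and Fgfr1 form the strongest pair at 0.81, and the 2 highest marker values are Fgfr3 with basal epithelium at 0.90 and Igf1r with endothelium at 0.88.

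Egfr and Fgfr1 varied together across arrays, with r = 0.811 (p = 3.0e-05, adjusted p = 0.00135, permutation test) and rho = 0.689 (adjusted p = 0.0172). Their r was 0.694 without the 2 farthest arrays, 0.816 over the 12 arrays, 0.662 over the 8 near-mean arrays and 0.859 with group means subtracted. Egfr went against Kit at r = -0.758 (p = 1.6e-04, adjusted p = 0.00292, permutation test) with rho = -0.693 (adjusted p = 0.0172), and r was -0.728 without the 2 farthest arrays. It also went against Fgfr3 at r = -0.662 (p = 0.00118, adjusted p = 0.00737, permutation test) with rho = -0.669 (adjusted p = 0.0191), and r was -0.608 without the 2 farthest arrays. Those 2 negative relations were not seen within the near-mean arrays, where r was 0.277 for Kit and 0.488 for Fgfr3. Over the other 12 arrays they were -0.821 and -0.777.

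Fgfr2 was the receptor with the most positive partners. Its r was 0.731 with Igf1r (p-values adjusted to 0.00292, permutation test), 0.725 with Erbb2 (0.00292), 0.687 with Erbb3 (0.00705), 0.65 with Kit (0.00935) and 0.635 with Fgfr3 (0.00994). By rho these were 0.732, 0.594, 0.630, 0.656 and 0.597, all with an adjusted p under the threshold. Without the 2 farthest arrays r was 0.700, 0.552, 0.515, 0.785 and 0.563. In the near-mean arrays Fgfr2 kept a clear r with Erbb3 (0.749) and Kit (0.548), while r was 0.065 with Igf1r, 0.097 with Erbb2 and 0.107 with Fgfr3. The promoters of Fgfr2 and Igf1r printed above, at opposite ends of the CG counts, therefore belong to genes whose values moved together over the 20 arrays but not within the 8.

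Met and Igf1r correlated at r = 0.675 (adjusted p = 0.00737, permutation test; rho = 0.586, adjusted p = 0.0281), and at 0.610 without the 2 farthest arrays, but at -0.673 within the near-mean arrays. Erbb4 went against Met at r = -0.620 (adjusted p = 0.0115, permutation test) and rho = -0.612 (adjusted p = 0.0243). The mean of Erbb4 lay below the median gene mean, as given above. Fgfr3 and Kit correlated at r = 0.696 (adjusted p = 0.00540, permutation test) and rho = 0.636 (adjusted p = 0.0213), with 0.207 in the near-mean arrays. The ErbB partners Erbb2 and Erbb3 had r = 0.628 (adjusted p = 0.0114, permutation test), but their rho of 0.537 (adjusted p = 0.0524) missed the threshold and r was 0.355 without the 2 farthest arrays. That relation was thus weaker without those arrays, but leaving them out also narrows the range of Erbb2.

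Set beside the means of 11 marker lists, 45 of 110 pairs passed (31 positive, 14 negative), 35 of them also by rho and 19 over the 12 arrays. All 45 kept their sign without the 2 farthest arrays, and 24 had the same sign within the near-mean arrays. Egfr went with leukocyte markers at r = 0.828 (adjusted p = 4.7e-04, permutation test; rho = 0.884, adjusted p = 2.8e-04), with 0.784 without the 2 farthest arrays, 0.830 over the 12 arrays and 0.621 over the 8. Fgfr1 did likewise at 0.809 (adjusted p = 4.7e-04, permutation test; rho = 0.731, adjusted p = 0.00489), with 0.705, 0.820 and 0.452. Egfr went against the luminal (r = -0.628) and basal (r = -0.630) means, with 0.427 and 0.573 in the near-mean arrays. Fibroblast markers also passed by r, at 0.684 with Egfr (adjusted p = 0.00706, permutation test) and 0.691 with Fgfr1 (adjusted p = 0.0072, permutation test). By rho they did not, at 0.368 and 0.454, and r was 0.241 and 0.64 in the near-mean arrays. Both receptors were highest in tumor 6, which has the highest leukocyte (8.38) and fibroblast (7.87) means. Metastasis 1 had a leukocyte mean of 8.25 but Egfr at 6.85. The 9 leukocyte markers did not move alike. In metastasis against tumor 6 were higher, among them Lyz2 (1.80), while S100a9 (-0.50), S100a8 (-0.43) and Cd3e (-0.29) were lower. In tumor against control all 9 were higher, most of all S100a9 (2.21) and S100a8 (1.89). None was called. The part of either cell type was not tested.

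Fgfr3 followed epithelial markers. With basal epithelium its r was 0.899 (adjusted p = 3.7e-04, permutation test; rho = 0.940, adjusted p = 2.8e-04), and 0.853, 0.941 and 0.717 without the 2 farthest arrays, over the 12 and over the 8. With luminal urothelium it was 0.790 (adjusted p = 4.7e-04, permutation test; rho = 0.901, adjusted p = 2.8e-04), and 0.71, 0.858 and 0.449. Erbb2 and Erbb3 correlated with both epithelial lists as well, at 0.668 and 0.622 for luminal and 0.736 and 0.631 for basal markers, but Erbb3 had -0.296 and -0.560 within the near-mean arrays. Fgfr2 went with smooth muscle at 0.865 (adjusted p = 3.7e-04, permutation test; rho = 0.820, adjusted p = 4.4e-04), with 0.760, 0.924 and 0.764, and with endothelium at 0.792 (adjusted p = 4.7e-04, permutation test; rho = 0.856, adjusted p = 5.5e-04), with 0.845, 0.831 and 0.473. Its r with luminal urothelium was 0.786, which was -0.142 in the near-mean arrays. Luminal and smooth muscle means are both highest in tumor 7, so the arrays do not part them well.

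Igf1r followed endothelium at 0.875 (adjusted p = 3.7e-04, permutation test; rho = 0.935, adjusted p = 2.8e-04), with 0.814 without the 2 farthest arrays, 0.876 over the 12 and 0.834 over the 8. It also went with smooth muscle at 0.741 (adjusted p = 0.00220, permutation test; rho = 0.648, adjusted p = 0.0182), but at -0.147 within the 8. Kit correlated with smooth muscle at 0.715 (adjusted p = 0.00288, permutation test; rho = 0.770, adjusted p = 0.00157) and against leukocytes at -0.728 (adjusted p = 0.00288, permutation test; rho = -0.635, adjusted p = 0.0204). Within the 8 these were 0.601 and -0.047. Kit also passed by r with endothelium (0.698), luminal (0.684) and basal (0.570) markers and against hepatocyte markers (-0.600). Within the 8 those were -0.114, 0.217, -0.304 and 0.332. Without the 2 farthest arrays r was 0.723 for luminal and 0.648 for smooth muscle markers. Of the cell types known to carry KIT, the mast cell list gave r = 0.265 (adjusted p = 0.354, permutation test; rho = 0.490, adjusted p = 0.0751), and 0.362 without the 2 farthest arrays. Mast cell markers peaked in tumor 7 (5.79), which has the highest Kit of the tumors at 5.67 and also the highest luminal and smooth muscle means. Kit was higher in control bladders 1 and 2, at 5.91 and 5.78, where the mast cell means were only 5.165 and 5.089. The mean of the 3 measured markers of interstitial cells of Cajal gave r = -0.403 (adjusted p = 0.171, permutation test; rho = -0.582, adjusted p = 0.0364). These 3 genes did not move alike. Against controls, tumors were lower in Ano1 (-0.26, SE 0.22) and higher in Gja1 (0.235, SE 0.11) and Thbs4 (0.87, SE 0.70), none called. Their mean was highest in tumor 6, at 7.60, so it does not stand for each of them. Melanocyte markers gave r = 0.15 (adjusted p = 0.619, permutation test; rho = 0.203, adjusted p = 0.539). Erbb4 had 1 relation that passed, against fibroblast markers at -0.644 (adjusted p = 0.0110, permutation test; rho = -0.630, adjusted p = 0.0217), and this was 0.658 in the near-mean arrays. That relation too involves a gene whose mean lay below the median gene mean. Met went with fibroblast markers at 0.569, with endothelium at 0.53 and against hepatocyte markers at -0.547, and within the near-mean arrays these were -0.013, -0.618 and -0.325. It also passed with interstitial cells of Cajal at r = 0.558 (adjusted p = 0.0251, permutation test), but rho was 0.15 (adjusted p = 0.642) and r was 0.27 without the 2 farthest arrays.

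**Figure D4:**
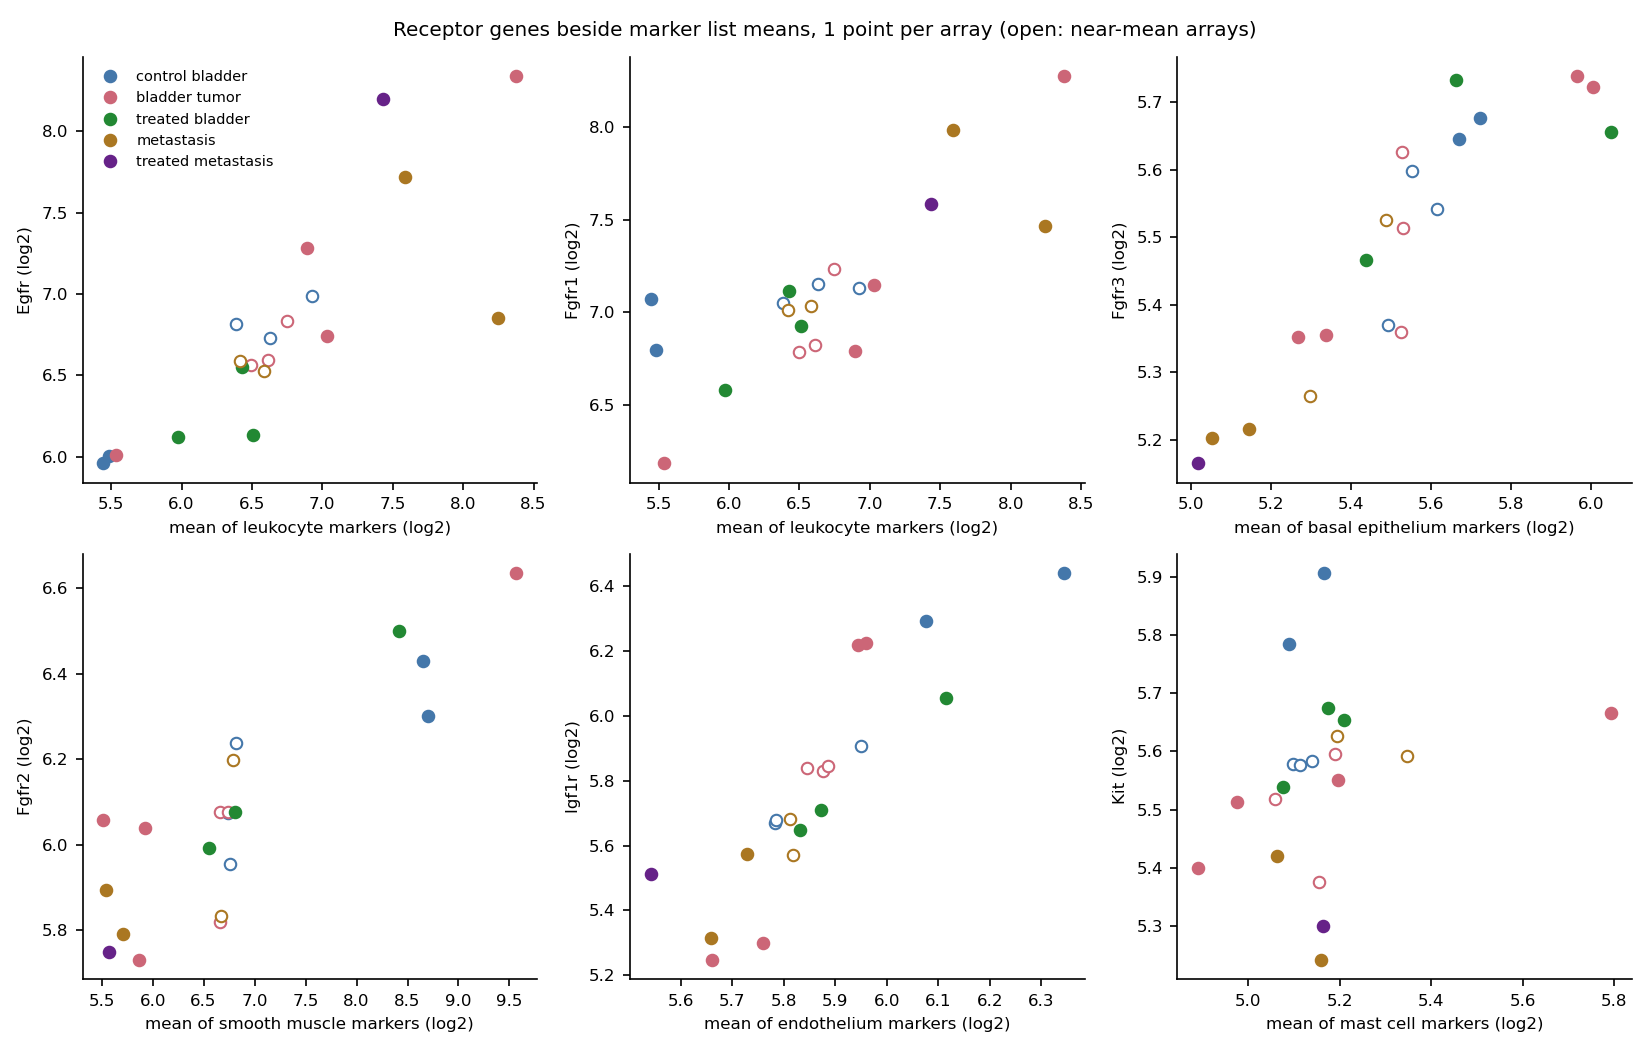
Log2 value of a receptor gene (y axis) against the mean log2 value of a marker list (x axis), 1 point per array, colored by group, with open points for the 8 near-mean arrays. Egfr and Fgfr1 are highest in tumor 6, which has the top leukocyte mean (8.38), Fgfr3 and Igf1r climb with their lists (r = 0.90 and 0.88), and Kit against mast cell markers has r = 0.27 and rho = 0.49, neither past the threshold after adjustment.

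Genes with the most similar pattern over the 20 arrays were looked up for each receptor among 9603 genes, as a description with no test. Egfr was most like Stab1 (r = 0.945), Tanc2 (0.944) and Fbln2 (0.939), of which Stab1 encodes a scavenger receptor of macrophages and sinusoidal endothelium and Fbln2 a matrix protein. Fgfr1 was most like Tnpo1 (0.940), Lrp1 (0.930) and Med13l (0.925). Fgfr3 was most like Kyat1 (0.930), Tnik (0.928) and Cldn4 (0.927), the last a tight junction claudin. For Igf1r the closest were Cacna2d1 (0.940), the caveolar protein gene Cav1 (0.932) and Gnao1 (0.915), and for Fgfr2 they were Slc35f5 (0.930), Tmem45b (0.906) and Stox2 (0.902).

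Lower values marked the best matches of the remaining receptors in part. Kit was most like Pla2r1 (0.907), Pde9a (0.899) and Adamtsl1 (0.894), and Erbb3 most like Prrg4 (0.902), the motor gene Myo5b (0.894) and Sema4b (0.836). Erbb2 paired with Cnksr3 (0.880), the cornified envelope gene Sprr1a (0.856) and Pof1b (0.844). The closest to Erbb4 were Serpinb10 (0.861), Slc28a2b (0.831) and Cidea (0.813), and to Met they were Daam1 (0.842), Rbms3 (0.83) and Arhgap42 (0.828).

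The pathways around the receptors were followed in 8 lists with 171 of 190 genes measured, and 0 of 171 were called in any of the 5 comparisons (limma). At an unadjusted p under 0.05 they counted 7 (4.09%), 0, 0, 15 (8.77%) and 13 (7.60%), beside the 4.28%, 0.488%, 0.763%, 6.0% and 7.12% of all genes given above. Among ligands, 10 ErbB ligands, 20 FGFs and 5 ligands of MET, IGF1R and KIT were measured. The FGF gene Fgf4 had a tumor mean of 4.27, a control mean of 4.03 and a metastasis mean of 3.94, with differences of 0.24 (SE 0.089) for tumor against control and -0.33 (SE 0.095, unadjusted p = 0.00247, adjusted p = 0.825) for metastasis against tumor. Its means lay below the median gene mean of 5.33, and whether its signal exceeds background was not analysed. Nrg1, a neuregulin, was -0.30 (SE 0.13) in metastasis against tumor, and Igf2 was -0.32 (SE 0.13) in metastasis against control. None of these 3 passed after adjustment.

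Of 44 other receptor kinases, Tek, the angiopoietin receptor of endothelium and also one of the endothelium markers, had a mean of 6.22 ± 0.39 (SD, n = 5) in controls and 5.79 ± 0.14 (SD, n = 7) in tumors. Its differences from controls were -0.44 (SE 0.14, unadjusted p = 0.00454, adjusted p = 0.999) in tumors and -0.52 (SE 0.16, unadjusted p = 0.00350, adjusted p = 0.676) in metastases. Mertk, a receptor of phagocytes that clears dying cells, was 0.65 (SE 0.25, adjusted p = 0.825) higher in metastases than in tumors. Among co-receptors the heparan sulfate proteoglycan gene Sdc4 was 0.61 (SE 0.24, adjusted p = 0.825) above tumors in metastases. Among adaptors, Gab2 was 0.53 (SE 0.16, unadjusted p = 0.00373, adjusted p = 0.825) above tumors in metastases and Grb2 0.23 (SE 0.10, adjusted p = 0.689) above controls.

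Feedback inhibitors damp receptor signaling, and the targets are transcribed downstream of it. Errfi1, which encodes an inhibitor of EGFR, averaged 6.47 ± 0.52 (SD, n = 7) in tumors and 5.98 ± 0.31 (SD, n = 5) in controls, a difference of 0.49 (SE 0.22, unadjusted p = 0.0347, adjusted p = 0.999). Ptprj, a receptor phosphatase, was 0.73 (SE 0.29, adjusted p = 0.825) above tumors and 0.89 (SE 0.31, adjusted p = 0.676) above controls in metastases. Jun, a target of the MAPK cascade, averaged 5.31 ± 0.18 (SD, n = 7) in tumors, 4.95 ± 0.21 (SD, n = 5) in controls and 4.98 ± 0.26 (SD, n = 3) in treated bladders, with differences of 0.36 (SE 0.14, adjusted p = 0.999) and, for treated bladder against tumor, -0.33 (SE 0.17, adjusted p = 1). Plaur was 0.72 (SE 0.29, adjusted p = 0.677) above controls in metastases.

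Some of the widest ranges in these lists came from single arrays. Of the 24 genes with the largest SD in their list, 9 were highest in bladder tumor 6 and 6 in bladder tumor 7. Such genes were picked by their SD over these arrays, so peaks in deviating arrays are partly built in. The share over all genes was not computed. Hgf, the ligand of MET, was 8.59 in tumor 6, where Met was also highest, with a tumor median of 6.33 and 6.14 to 6.67 in controls. The EGFR ligand gene Ereg reached 6.94 in tumor 6 against a tumor median of 5.16, and Fgf7 6.51 against 5.16. Ptgs2, a target that encodes cyclooxygenase-2, was 11.7 in tumor 6, while the tumor median was 5.84. Igfbp5 was 10.4 there, against a median of 7.12. Thus tumor 6 held the highest values of Met and Hgf and of Egfr and Ereg. Not every ligand was high there. Tgfa, which encodes another EGFR ligand, had its lowest value of the 20 arrays in tumor 6 (4.93). Igf1, a ligand gene of IGF1R, was also lowest in tumor 6 (5.98). Cbl, which encodes the ubiquitin ligase that sends EGFR to degradation, had the largest SD of all 171 (1.66) and ran from 5.57 in tumor 1 to 12.4 in the treated metastasis.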

How the data were processed

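Per the labels' protocols, total RNA of 20 samples was taken up with a kit for fixed, embedded tissue and run on Affymetrix whole-transcript arrays. The authors deposited log2 values. The submitters' processing notes name RMA and Affymetrix Expression Console, without versions. RMA quantile-normalizes arrays, so differences in total RNA are removed. Signal over background was not analysed here, and the number of arrays limits the precision. Of 65956 rows, 30604 carried 1 gene symbol, 2146 carried several and were dropped, and 33206 carried none here. Where a gene had more than 1 row (355 genes), that of highest mean stood for it, leaving 30142 genes.

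Group means of 19 arrays were fitted with limma (version 3.58.1, R 4.3.3, lmFit and eBayes, no covariates) over all genes, two-sided, with Benjamini-Hochberg adjustment in each comparison. The treated metastasis (n = 1) entered no test. Correlations have two-sided permutation p-values (100000 resamples). Both steps were tested on simulated data. Samples that share a replicate number do not deviate together, so numbers were not taken as pairs. Alternatives were array weights, a second quantile normalization, fitting only the 2 groups, a robust and trended prior, median centring, a filter on dim genes, the mean of a gene's rows, a replicate block, leaving out each array, and leaving out the near-mean arrays. The near-mean arrays alone, and the fit without control bladders 1 and 2, were chosen after seeing the data. Named genes are the 10 receptors, per pathway list the gene with the smallest p where described and the 3 with the largest SD, and per receptor the 3 genes with the highest r among those at or above the median mean. Marker genes stand in list means. Xist, Rb1 and Rbl1 were chosen after their values were seen. The members and lists were chosen with earlier results of these data known. Other alleles of the shared genotype are not reported here.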

Additional observations from a re-analysis of the deposited data

Results flagged for a closer look

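In the 30 sets of values examined (10 receptors in the 3 groups of 4 to 7 arrays), 2 held an array far from the others of its group, where chance flags about 1 in 20. Fgfr1 in control bladder 2, at 6.796 against 7.05 to 7.15 in the other controls, was separated from them by 0.716 of the group's range. Fgfr2 in bladder tumor 7, at 6.636, was 0.56 above the next tumor, or 0.618 of the range. Tumor 7 also has the highest luminal and smooth muscle marker means.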

How the results depend on the processing

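No receptor gene was called in any alternative, the lowest adjusted p being 0.203 over 1475 values (limma). Of the 50 differences, 17 kept their sign throughout and 33 turned in at least 1 alternative, and none of the 50 had passed the test. The cause was not tested. In the near-mean arrays alone the sign turned for Egfr (-0.18), Erbb4 (-0.12) and Igf1r (0.087) in tumor against control, for Egfr (-0.11), Erbb2 (0.20), Fgfr2 (0.025), Met (0.15) and Kit (0.11) in metastasis against tumor, for Egfr (-0.29), Erbb2 (0.0041), Fgfr1 (-0.087), Met (0.25) and Kit (0.029) in metastasis against control. Without the near-mean arrays the sign turned for Erbb2 (0.094), Erbb3 (0.016), Fgfr1 (0.17) and Met (-0.10) in tumor against control, for Erbb2 (-0.0067) in treated bladder against tumor, for Egfr (0.29) and Fgfr3 (-0.043) in treated bladder against control, for Erbb3 (-0.012) in metastasis against tumor. With arrays centred on their median the sign turned for Erbb4 (-0.0079) in tumor against control, for Kit (0.00060) in metastasis against tumor. After a second quantile normalization the sign turned for Erbb4 (-0.022) in tumor against control, for Fgfr2 (0.0021) in treated bladder against control, for Egfr (-0.032) in metastasis against tumor. Without control bladders 1 and 2 the sign turned for Erbb4 (-0.082), Fgfr3 (0.021) and Igf1r (0.035) in tumor against control, for Fgfr2 (0.10), Met (0.063), Igf1r (0.053) and Kit (0.042) in treated bladder against control. With array weights the sign turned for Fgfr1 (0.0031) and Met (-0.11) in tumor against control, for Igf1r (-0.033) in treated bladder against tumor, for Erbb3 (-0.0063) in metastasis against tumor, for Erbb3 (-0.061) in metastasis against control. With the replicate number as a block the sign turned for Fgfr1 (0.058) in tumor against control, for Fgfr1 (0.069) in treated bladder against tumor, for Egfr (0.17), Fgfr1 (0.13) and Fgfr3 (-0.043) in treated bladder against control, for Erbb2 (0.045) in metastasis against tumor, for Erbb3 (-0.010) in metastasis against control.

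When 1 array at a time was left out, signs turned in tumor against control for Erbb2 -0.10 to 0.0012, Erbb3 -0.15 to 0.045, Erbb4 -0.043 to 0.041, Fgfr1 -0.21 to 0.14 and Met -0.052 to 0.14. In the same fits signs turned in treated bladder against tumor for Fgfr1 -0.30 to 0.047, Fgfr2 -0.029 to 0.23, Met -0.46 to 0.023 and Igf1r -0.11 to 0.096. They also turned in treated bladder against control for Erbb2 -0.0092 to 0.12, Fgfr2 -0.17 to 0.088, Fgfr3 -0.0052 to 0.13 and Met -0.40 to 0.080. A turn was seen in metastasis against tumor for Egfr -0.25 to 0.25, Erbb2 -0.12 to 0.016, Erbb3 -0.081 to 0.22 and Kit -0.099 to 0.029. The last were in metastasis against control for Erbb3 -0.11 to 0.19.

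The count of genes called, 0 in each comparison, became 1 in tumor against control, 1 in treated bladder against control, 4 in metastasis against tumor and 5 in metastasis against control without the near-mean arrays. In metastasis against tumor it was 2 with array weights, 2 with only genes at or above the median level, which leaves out Erbb4, and 0 to 2 when 1 array was left out (2 without control bladder 5 and 2 without bladder tumor 6). In metastasis against control it was 1 with only the 2 groups, and 0 to 1 when 1 array was left out (1 without bladder tumor 1). Of the receptor pairs, 10 in place of 16 correlated with group means subtracted, and of the marker pairs 19 in place of 45 without the near-mean arrays. Same-numbered samples of different groups had a mean correlation of deviations of -0.09 over 20 pairs, against 0.017 over 111 pairs of different number, and 2 of 19 arrays correlated best with their own number. The samples share only a number, and with the replicate block 0 genes were called in each comparison. The treated bladders hold no near-mean array, so the near-mean arrays alone give no value for them.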
